A study of Mus musculus with 10 samples.

Results

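The oligodendrocyte lineage is built by transcription factors that act in turn. Olig1, Olig2 and members of the Sox family set up precursors in the ventral neural tube and keep them in the lineage, and Myrf, Zfp488, Zeb2 and Tcf7l2 take part in the later step in which precursors leave the cell cycle and make myelin. Here 10 such factors were listed, and their transcripts were followed on expression arrays of newborn mouse hindbrain and upper spinal cord with and without the homeodomain factor Nkx2.2. Members were all probe sets, the groups of short probes that each read 1 transcript region, whose platform gene symbol named a listed factor. This gave 27 of the 45037 probe sets tested, 17 for 6 specification factors (Olig1, Olig2, Sox10, Sox8, Sox5 and Sox6) and 10 for 3 differentiation factors (Myrf, Zeb2 and Tcf7l2). None lay in a field with several symbols. For Zfp488, the 10th factor, no probe set carried the symbol, and it was not analysed here.

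Nkx2.2-/- mice (replicates 11, 12, 22, 29 and 43) were compared with wild-type littermates, labelled WT (replicates 14, 15, 16, 18 and 21), all of the C57BL/6 strain and aged 1.5 to 2 days after birth. Each array held RNA of pons, medulla and rostral spinal cord taken from 20 µm sagittal sections of 1 mouse. The labels give the genotype and do not describe the allele, so which part of the gene is missing was not known here. Values are log2 expression after RMA, and every change is Nkx2.2-/- minus WT.

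Olig1 and Olig2 are basic helix-loop-helix factors, and Olig2 is needed for both motor neurons and oligodendrocytes of the spinal cord. Sox10 and Sox8 are SoxE factors that activate glial genes, and Sox5 and Sox6 are SoxD factors that hold precursors back from early differentiation. Myrf switches on myelin genes directly, Zeb2 represses signals that inhibit differentiation, and Tcf7l2 is a Wnt pathway effector found in newly differentiating oligodendrocytes. Nkx2.2 itself is a homeodomain protein of the NK-2 class that promotes differentiation of the lineage.

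Genes of 7 factors, Zfp488 included, had upstream windows in the RefSeq table used here (GRCm38.p6), each taken as the 250 bases before an annotated start. Olig1, Sox10 and Myrf had no window there and were not searched. The windows were searched on both strands for TNAAGTG, the core letters bound by NK-2 class homeodomains. The letters occurred in 4 of the 16 windows of these genes, 3 of 6 for Sox6 and 1 of 2 for Tcf7l2, against 10.1% of all 32851 windows. Windows of 1 gene are alternative starts, some of which overlap, so they are not independent. A share by gene is not given, and no enrichment was tested. The pair shown belongs to the specification factor of highest positive change and to the differentiation factor whose window held the letters. These were chosen by unlike rules, so the pair is no comparison of the classes. Most windows with the letters were those of Sox6, a specification factor, and are not shown. Capitals mark the TNAAGTG match.
Olig2, chr16:91225300-91225549, plus strand: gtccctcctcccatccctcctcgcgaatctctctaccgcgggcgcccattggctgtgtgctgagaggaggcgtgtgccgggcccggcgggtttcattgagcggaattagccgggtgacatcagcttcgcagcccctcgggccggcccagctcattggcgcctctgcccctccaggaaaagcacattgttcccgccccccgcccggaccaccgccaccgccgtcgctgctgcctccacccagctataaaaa
Tcf7l2, second annotated start, chr19:55895071-55895320, plus strand: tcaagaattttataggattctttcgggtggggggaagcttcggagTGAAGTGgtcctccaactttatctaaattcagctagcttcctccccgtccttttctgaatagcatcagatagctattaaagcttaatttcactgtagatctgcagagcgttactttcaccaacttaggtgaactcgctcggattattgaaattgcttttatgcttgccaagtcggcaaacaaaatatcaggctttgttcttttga
The match in the Tcf7l2 window began 205 bases before that start, and the Olig2 window held none. A match is a description of letters and says nothing of binding.

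The Nkx2-2 transcript separated the genotypes, with 4.24 to 4.73 in Nkx2.2-/- mice and 6.42 to 6.88 in WT mice, though whether its probes lie in the missing part was not known. Array medians lay between 5.07 and 5.12. Over all probe sets 23 fell, which is 0.0511% of those tested, and 0 rose (limma, Benjamini-Hochberg adjusted p under 0.05). At an unadjusted p under 0.05, 1059 were lower (2.35%) and 486 higher (1.08%), together 3.43%. Arrays also differed in ways that moved with genotype. The mean of 5 proliferation genes was 5.45 to 6.20 in Nkx2.2-/- mice and 6.01 to 6.80 in WT mice, and that of 5 caudal Hox genes, which mark spinal levels, was 5.21 to 6.01 in Nkx2.2-/- mice and 5.05 to 5.26 in WT mice. The 5 prime Gapdh control was dim against the 3 prime one on Nkx2.2-/- replicate 43 (difference 3.78) and WT replicate 14 (2.13), and lay between -0.32 and 0.13 on the others. The part of these differences in the values that follow was not tested beyond the alternative fits named beside them.

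Of the 27 member probe sets, 0 fell and 0 rose by the test over all probe sets. The lowest adjusted p was that of Myrf (limma adjusted p = 0.668), and for the other 26 it was 0.9997. At an unadjusted p under 0.05 there were 2 members, Myrf and the dimmest Zeb2 probe set, both lower, beside 2.35% of all probe sets lower at that level. The groups did not overlap in 1 member, Myrf, with Nkx2.2-/- lower, against 0.442% of all probe sets separated in that direction and 0.757% in either. The median change of the 27 was -0.027, with 17 negative and 10 positive, beside 0.0010 over all probe sets. In tissue RNA of this kind, fewer cells of a type and less RNA per cell cannot be told apart.

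**Figure D1:**
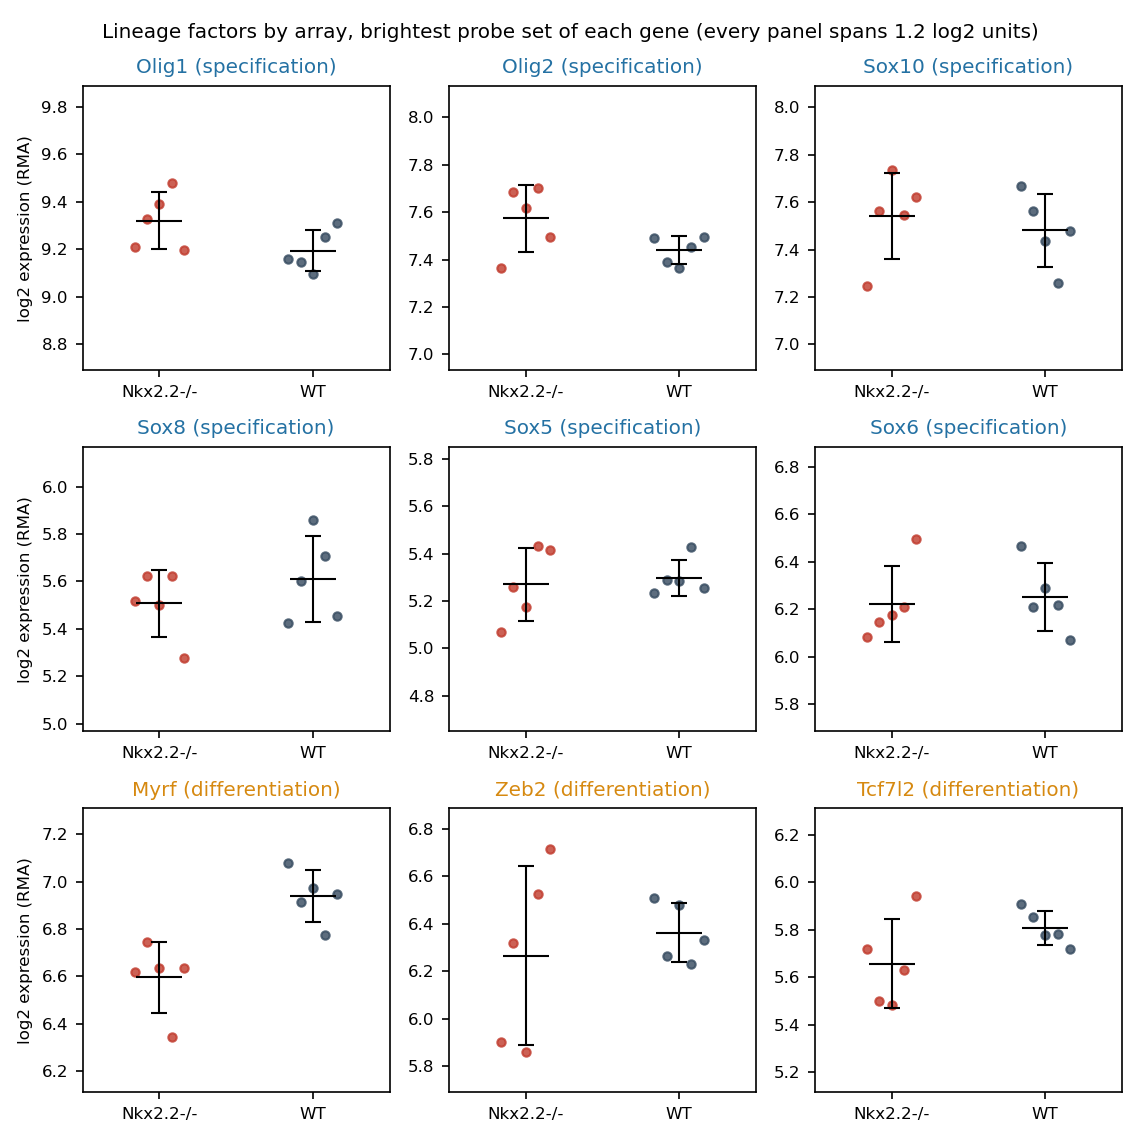
Log2 expression of the 9 factors on each array, by the probe set of highest mean for each gene. Points are arrays, with Nkx2.2-/- mice in red at left and WT mice in dark blue at right, bars give the mean and SD (n = 5 each), and every panel spans 1.2 log2 units. Only in the Myrf panel do all 5 Nkx2.2-/- points lie below all 5 WT points.

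Olig1 had values of 9.21, 9.33, 9.39, 9.48 and 9.20 in Nkx2.2-/- replicates 11, 12, 22, 29 and 43, against 9.16, 9.15, 9.10, 9.25 and 9.31 in WT replicates 14, 15, 16, 18 and 21. Replicates 12, 22 and 29 lay above every WT mouse and the other two Nkx2.2-/- mice lay within the WT range. The mean log2 difference came to 0.13 (95% interval -0.014 to 0.27, limma adjusted p = 0.9997, exact two-sided permutation p = 0.0952).

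Olig2 was at 7.36, 7.69, 7.62, 7.70 and 7.50 in Nkx2.2-/- replicates 11, 12, 22, 29 and 43, against 7.49, 7.39, 7.36, 7.45 and 7.50 in WT replicates 14, 15, 16, 18 and 21. Nkx2.2-/- replicate 11 was at the bottom of both groups. Its difference was 0.13 (95% interval -0.012 to 0.28, limma adjusted p = 0.9997, exact two-sided permutation p = 0.111). In fold terms the interval ran from 0.992 to 1.21. Leaving out replicate 11 gave 0.19 (interval 0.067 to 0.31), and Olig2 still did not pass over all probe sets. With covariates the value was nearer to 0, at 0.058 (interval -0.13 to 0.25) with the caudal Hox mean and 0.046 (interval -0.16 to 0.25) with the proliferation mean. Olig1 was at 0.026 (interval -0.15 to 0.20) with the caudal Hox mean.

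Sox10 was read by 3 probe sets. On the brightest it was at 7.24, 7.56, 7.74, 7.55 and 7.62 in Nkx2.2-/- replicates 11, 12, 22, 29 and 43, against 7.67, 7.56, 7.44, 7.26 and 7.48 in WT replicates 14, 15, 16, 18 and 21. The ranges nearly coincided. All 3 probe sets had small positive changes, 0.061, 0.065 and 0.029, with intervals that all crossed 0 and together spanned -0.15 to 0.27 (limma adjusted p = 0.9997 for each).

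Sox8, with 1 probe set, was at 5.52, 5.62, 5.50, 5.62 and 5.28 in Nkx2.2-/- replicates 11, 12, 22, 29 and 43, against 5.42, 5.60, 5.86, 5.71 and 5.45 in WT replicates 14, 15, 16, 18 and 21. The lowest mouse was Nkx2.2-/- and the highest 2 were WT, with the others mixed, and the change was -0.10 (interval -0.31 to 0.10, limma adjusted p = 0.9997). Its lowest array in each group was the one of dim 5 prime Gapdh.

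The SoxD factors had the changes nearest to 0. Over 7 probe sets Sox5 ran from -0.045 to 0.0045, and over 4 probe sets Sox6 ran from -0.034 to 0.014. Their brightest probe sets averaged 5.27 ± 0.155 in Nkx2.2-/- mice and 5.30 ± 0.0768 in WT mice for Sox5, and 6.22 ± 0.160 in Nkx2.2-/- mice and 6.25 ± 0.143 in WT mice for Sox6 (SD, n = 5 each). The intervals of these 2 were -0.19 to 0.13 and -0.22 to 0.16. Of the 7 Sox5 probe sets, 6 had a mean below the middle of all probe sets and the dimmest lay above 3.80% of them. The pair of brighter Sox6 probe sets was highest on the arrays of dim 5 prime Gapdh, at 6.50 and 6.40 in Nkx2.2-/- replicate 43 and at 6.47 and 6.24 in WT replicate 14.

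**Figure D2:**
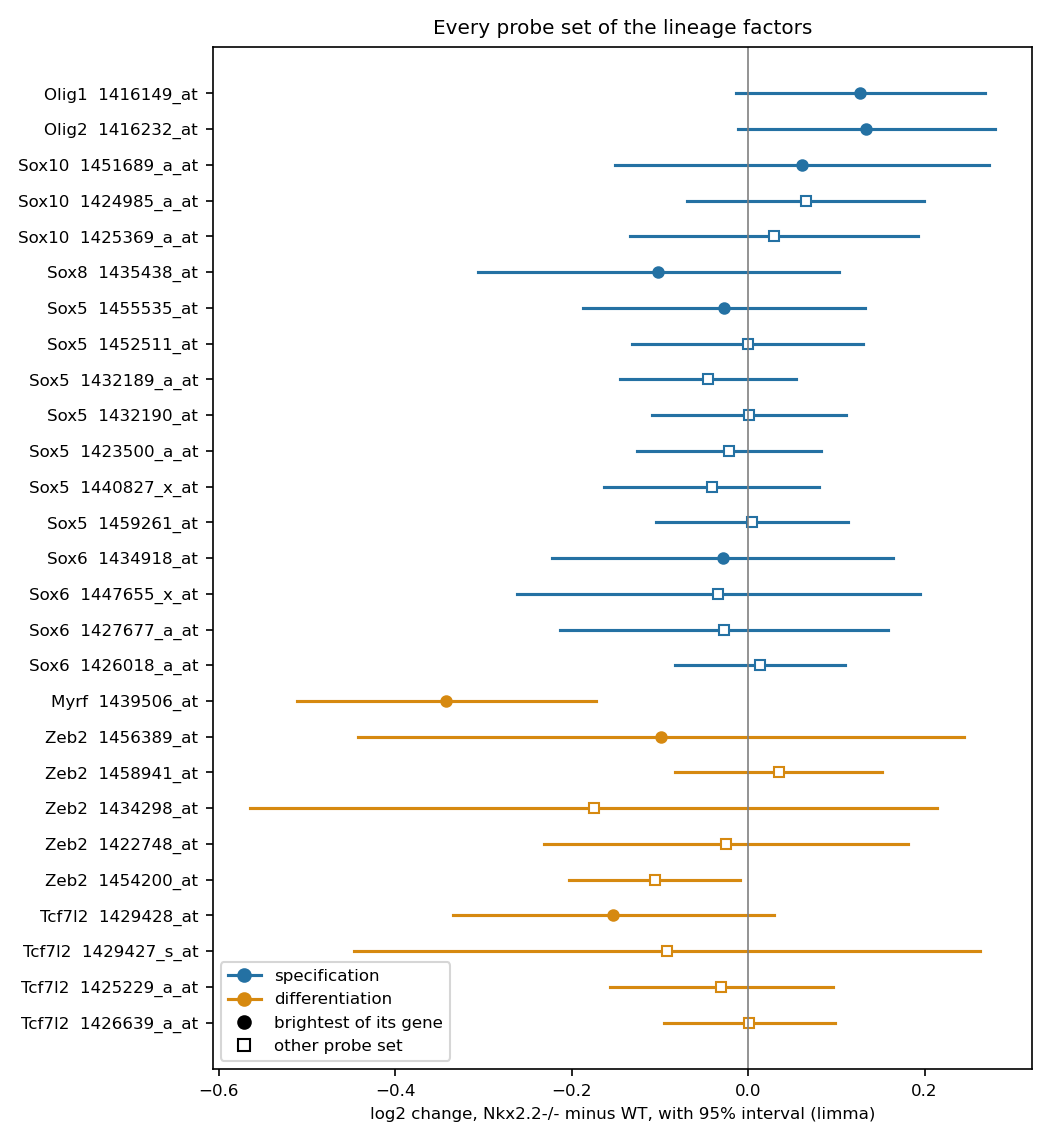
Log2 change, Nkx2.2-/- minus WT, of each of the 27 probe sets with its 95% interval from limma. Blue marks specification and orange differentiation factors, and filled circles the brightest probe set of a gene. Intervals of 25 probe sets cross 0, and those of Myrf and of the dimmest Zeb2 probe set do not.

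Myrf had the lowest p of the 9 genes and was lower in every Nkx2.2-/- mouse. It was at 6.62, 6.74, 6.64, 6.34 and 6.64 in Nkx2.2-/- replicates 11, 12, 22, 29 and 43, against 7.08, 6.91, 6.97, 6.77 and 6.95 in WT replicates 14, 15, 16, 18 and 21. Every Nkx2.2-/- mouse lay below every WT mouse, with a gap of 0.030 between the highest of one and the lowest of the other. Means were 6.60 ± 0.149 in Nkx2.2-/- mice and 6.94 ± 0.109 in WT mice (SD, n = 5 each). This made a log2 difference of -0.34 (SE 0.0767, 95% interval -0.51 to -0.17), or 0.789-fold (0.702 to 0.887). By unadjusted p Myrf ranked 68 among all probe sets, in the first 0.151%, and after adjustment it did not pass (limma adjusted p = 0.668). The exact two-sided permutation p for this single gene was 0.00794, the smallest that 5 against 5 can give.

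The value for Myrf had the same sign in all 23 alternative fits, from -0.39 to -0.24, and it passed the adjusted threshold in none of them (limma adjusted p from 0.474 to above 0.9999). It was nearest to 0 with the caudal Hox mean as a covariate, at -0.24. Without the 2 arrays of dim 5 prime Gapdh it was -0.32. One probe set read Myrf, so no second probe set could be set beside it.

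Zeb2 was read by 5 probe sets, with changes from -0.17 to 0.035. The brightest was at 5.90, 6.32, 5.86, 6.53 and 6.72 in Nkx2.2-/- replicates 11, 12, 22, 29 and 43, against 6.51, 6.26, 6.48, 6.23 and 6.33 in WT replicates 14, 15, 16, 18 and 21. Nkx2.2-/- mice lay both below and above the whole WT range. The SD was 0.377 in Nkx2.2-/- mice and 0.125 in WT mice, and the change was -0.098 (interval -0.44 to 0.24, limma adjusted p = 0.9997). Single arrays moved it either way, to 0.0028 without Nkx2.2-/- replicate 22, -0.0079 without replicate 11, -0.16 without replicate 29 and -0.21 without replicate 43. It was -0.17 without the 2 arrays of dim 5 prime Gapdh and -0.36 with the proliferation mean as a covariate.

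The Zeb2 probe set of most negative change, -0.17 (interval -0.56 to 0.21), was also widely spread in Nkx2.2-/- mice, at 4.89, 5.05, 4.65, 5.25 and 5.80 in Nkx2.2-/- replicates 11, 12, 22, 29 and 43, against 5.43, 5.23, 5.45, 5.18 and 5.23 in WT replicates 14, 15, 16, 18 and 21. Its value was -0.31 (interval -0.57 to -0.057, limma adjusted p = 0.9998) without the 2 arrays of dim 5 prime Gapdh, -0.11 without Nkx2.2-/- replicate 11 and -0.056 without replicate 22. The dimmest was at 4.39, 4.33, 4.23, 4.29 and 4.34 in Nkx2.2-/- replicates 11, 12, 22, 29 and 43, against 4.43, 4.46, 4.42, 4.31 and 4.47 in WT replicates 14, 15, 16, 18 and 21. On it WT replicate 18 was low and lay among the Nkx2.2-/- mice, and the other 4 WT mice lay above all of them. Its difference was -0.11 (interval -0.20 to -0.0087, exact two-sided permutation p = 0.0317, limma adjusted p = 0.9997). Zeb2 is also made in neurons and in microglia.

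Tcf7l2 was read by 4 probe sets, with changes from -0.15 to 0.0015. On the brightest it was at 5.72, 5.50, 5.48, 5.63 and 5.94 in Nkx2.2-/- replicates 11, 12, 22, 29 and 43, against 5.91, 5.85, 5.78, 5.78 and 5.72 in WT replicates 14, 15, 16, 18 and 21. Of the Nkx2.2-/- mice 4 lay below the lowest WT mouse, replicate 11 by less than 0.01, and replicate 43 lay above all WT mice. The difference was -0.15 (interval -0.33 to 0.029, limma adjusted p = 0.9997, exact two-sided permutation p = 0.143). Without the 2 arrays of dim 5 prime Gapdh, which were the highest of their groups, it was -0.20 (interval -0.34 to -0.063), and it did not pass over all probe sets.

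**Figure D3:**
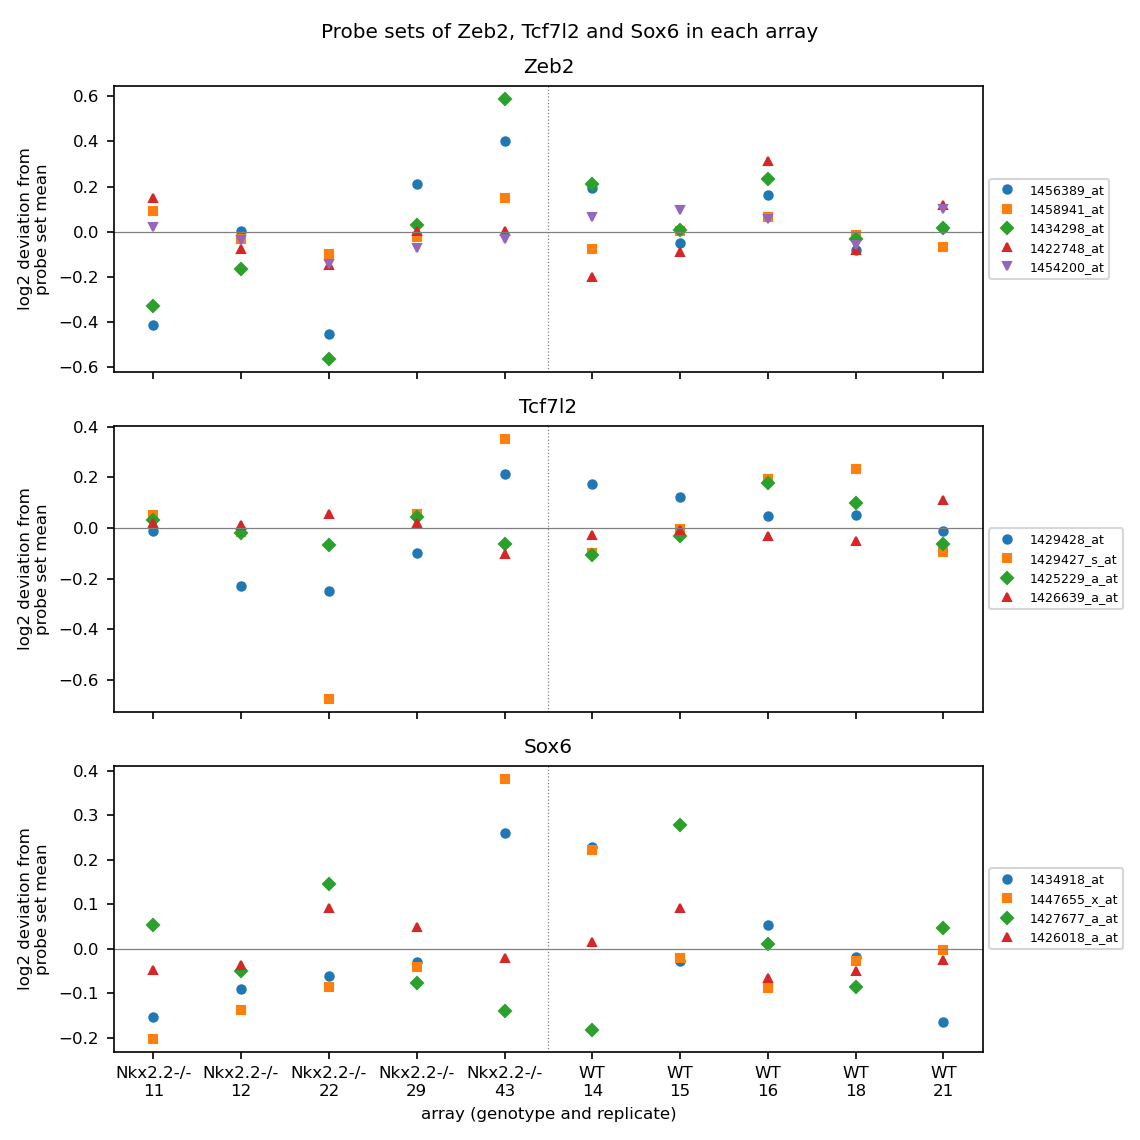
Deviation of each Zeb2, Tcf7l2 and Sox6 probe set from its own mean over the 10 arrays, in log2 units, with Nkx2.2-/- arrays left of the dotted line and WT arrays right of it. Nkx2.2-/- replicate 22 is the lowest of its group in all 5 Zeb2 probe sets, and replicate 43 is the highest of its group in 3 of them.

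Arrays stood apart in the same way for several probe sets. Nkx2.2-/- replicate 22 was the lowest of its group in 5 of 5 Zeb2 and 3 of 4 Tcf7l2 probe sets. Among the other members this held only in a Sox5 probe set. Probe sets of a gene are not independent, and the share of all probe sets in which replicate 22 was lowest is not given here. In the second brightest Tcf7l2 probe set replicate 22 was at 4.30, with 4.96 to 5.32 in the other Nkx2.2-/- mice and 4.87 to 5.21 in WT mice. Nkx2.2-/- replicate 43 and WT replicate 14 were both the highest of their groups in 4 of the 27 member probe sets (14.8%, against 13.1% of all probe sets) and both the lowest in 3 (11.1%, against 11.5%). By count, the 27 thus followed Nkx2.2-/- replicate 43 and WT replicate 14 about as often as probe sets at large. Among the brightest probe sets, those of Sox6, Zeb2 and Tcf7l2 were highest of their groups on both arrays. That of Sox8 was lowest on both, and those of the other genes were neither.

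Specification and differentiation factors were set side by side by the brightest probe set of each gene, as a description without a test. Of 6 specification factors 3 had positive and 3 negative changes, with a median of 0.017. Leaving out Sox5 and Sox6, which are known as brakes on differentiation, gave a median of 0.094. Of 3 differentiation factors 3 had negative changes, with a median of -0.15, and 0 of either class passed. Over every probe set the medians were -0.00055 for 17 specification and -0.095 for 10 differentiation probe sets. Negative in sign were 9 of the 17 and 8 of the 10, against 49.2% of all probe sets, and probe sets of 1 gene are not independent.

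The mean of the 3 differentiation factors was 6.08, 6.19, 5.99, 6.17 and 6.43 in Nkx2.2-/- replicates 11, 12, 22, 29 and 43, against 6.50, 6.34, 6.41, 6.26 and 6.33 in WT replicates 14, 15, 16, 18 and 21. Of the Nkx2.2-/- mice 4 lay below all WT mice and replicate 43 did not. The mean of the 6 specification factors was 6.91 ± 0.0937 in Nkx2.2-/- mice and 6.88 ± 0.0238 in WT mice (SD, n = 5 each), with Nkx2.2-/- replicate 11 below and the other 4 above every WT mouse. Taken within each array, Myrf minus Olig2 was -0.74, -0.94, -0.98, -1.36 and -0.86 in Nkx2.2-/- replicates 11, 12, 22, 29 and 43, against -0.41, -0.48, -0.39, -0.68 and -0.55 in WT replicates 14, 15, 16, 18 and 21. The groups did not overlap in this difference, which joins the member of lowest change with that of highest change, and Myrf alone already separated them. The groups overlapped in every other difference computed. The differentiation mean minus the specification mean was -0.94 to -0.49 in Nkx2.2-/- mice and -0.62 to -0.41 in WT mice. Myrf minus Sox10 was -1.20 to -0.63 in Nkx2.2-/- mice and -0.65 to -0.46 in WT mice, and Tcf7l2 minus Olig2 was -2.19 to -1.55 in Nkx2.2-/- mice and -1.78 to -1.54 in WT mice. Nkx2.2-/- replicate 29, with the highest Olig1 and Olig2 of its group, had the lowest Myrf. Replicate 12, with the highest Myrf of that group (6.74), had Olig2 at 7.69, close to the 7.70 of replicate 29.

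**Figure D4:**
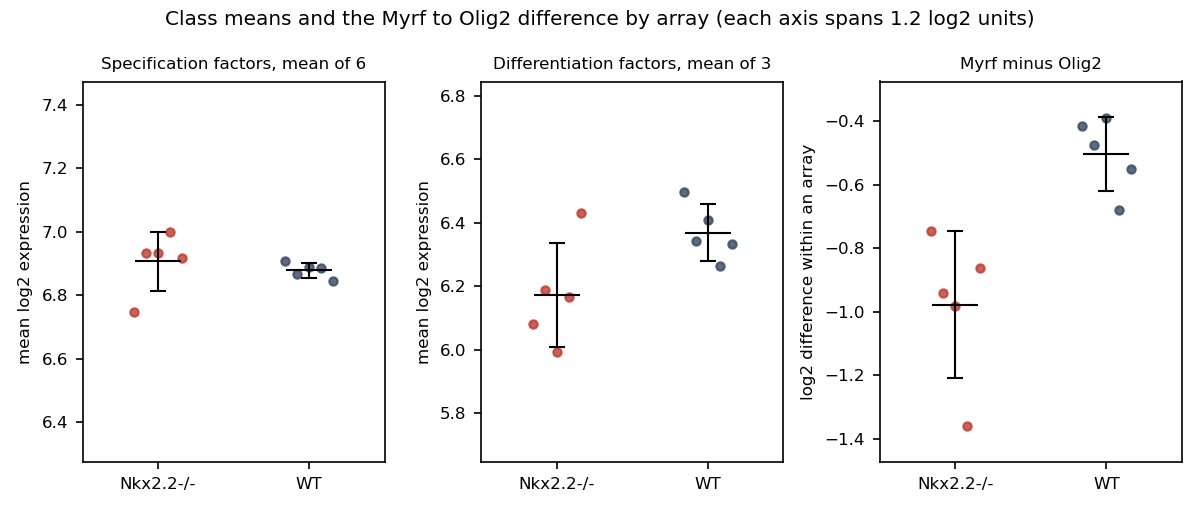
Mean log2 expression of 6 specification and of 3 differentiation factors on each array, and the log2 difference Myrf minus Olig2 within each array. Nkx2.2-/- mice are at left in red and WT mice at right in dark blue, bars give mean and SD (n = 5 each). Class means overlap between genotypes, and the Myrf minus Olig2 values do not (-1.36 to -0.74 in Nkx2.2-/- mice, -0.68 to -0.39 in WT mice). The differentiation mean minus the specification mean, Myrf minus Sox10 and Tcf7l2 minus Olig2, not drawn, overlap.

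Other regulators of the lineage were taken from a list of 48 genes, 46 of them measured. Of these Nkx2-2 fell. Of the other 45, 0 passed, 30 were lower and 15 higher in sign, the median change was -0.019, and 0 had an unadjusted limma p under 0.05. By the brightest probe set of each gene, 9637 of all 18193 genes were lower in sign, with a median of -0.0042. Among inhibitors of differentiation, Hes5, a Notch effector, had a change of -0.19 and Id3 one of -0.14. Among other Sox genes Sox17 was at -0.16 and Sox21 at 0.13, and Sox9, which acts early in glial specification, was at 0.013. Nkx6-2, a homeodomain factor of ventral progenitors and oligodendrocytes, was at -0.047. The E protein genes Tcf12 and Tcf4, whose products pair with Olig proteins, were at -0.14 and -0.15, and St18, a zinc finger gene of the Myt1 family, and Tcf7l1, a relative of Tcf7l2, were at -0.26 and -0.049.

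Stage markers of the lineage were read beside the factors. Of 5 precursor markers 0 passed, with a median of 0.043. Among them Pdgfra, the growth factor receptor of precursors, was at 0.52 (interval 0.17 to 0.87, limma adjusted p = 0.9997), Cspg4 at 0.043 and Ptprz1 at -0.11. Of 6 markers of newly formed oligodendrocytes 0 passed, 6 were lower in sign and the median was -0.26, with Bcas1 at -0.77 (limma adjusted p = 0.334) and Enpp6 at -0.27. At an unadjusted limma p under 0.05, 5 of the 6 were lower, beside 2.35% of all probe sets. The mean level of the 6 was 6.46 to 6.66 in Nkx2.2-/- mice and 6.75 to 6.97 in WT mice, and its part in the Myrf values was not tested. Of 9 myelin genes 6 fell, 0 rose, and the median was -0.72. The 6 were Mbp, at -2.74, Cldn11, at -1.14, Ugt8a, at -1.07, Cnp, at -0.97, Mobp, at -0.72, and Mag, at -0.60, while Mog was at -0.30 and did not pass (limma adjusted p = 0.216). WT replicate 18, lowest of its group for Myrf, was also lowest of its group in 7 of the 9 myelin genes. In the newly formed oligodendrocyte and precursor lists it was lowest in 3 of 6 and 0 of 5. Its proliferation mean was the highest of all arrays, at 6.80. The share of all probe sets in which it was lowest is not given here. Nkx2.2-/- replicate 29, lowest of its group for Myrf, was lowest in 0 of the 9 myelin genes, and replicate 11 was lowest in 5. In the same other lists replicate 29 was lowest in 1 and 0 genes, and replicate 11 in 3 and 0.

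**Figure D5:**
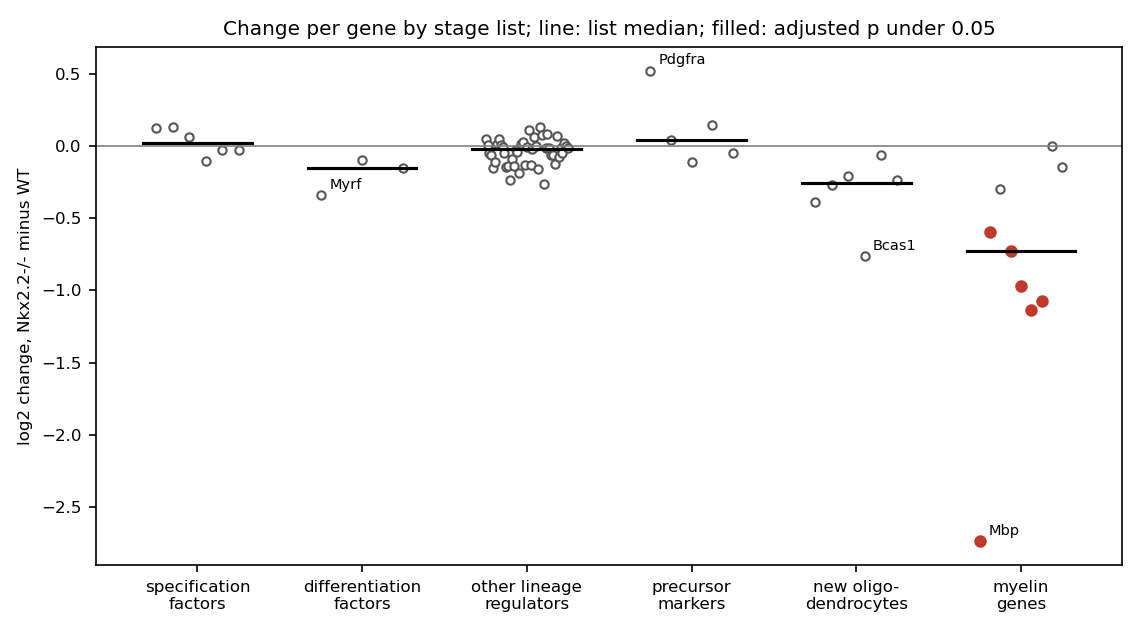
Log2 change of each gene, Nkx2.2-/- minus WT, by its brightest probe set, in 6 lists, with other lineage regulators drawn without Nkx2-2. Filled red points passed the test over all probe sets (adjusted p under 0.05), and lines are list medians. Filled points appear in the myelin list only, where 6 of 9 passed, and the lowest factor is Myrf at -0.34.

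Markers of other cells that make some of these factors were measured as well. Of 4 measured Schwann cell genes, which matter for Sox10 and Sox8, 0 passed the median was -0.0072, and their mean level was 5.47 to 5.76 in Nkx2.2-/- mice and 5.50 to 5.72 in WT mice, with Drp2 at -0.085 and Ncmap at 0.083. Of 6 microglial and vessel genes 0 passed the median was -0.055, and the mean level was 6.12 to 6.25 in Nkx2.2-/- mice and 6.13 to 6.38 in WT mice, with Pdgfrb at -0.19 and Csf1r at -0.11. Of 6 neuronal genes 0 passed, with a median of 0.014 and a mean level of 9.10 to 9.64 in Nkx2.2-/- mice and 9.20 to 9.49 in WT mice, Rbfox3 at 0.12 and Gad2 at -0.10. Of 5 astrocyte and radial glia genes 0 passed, with a median of -0.15 and a mean level of 8.91 to 9.18 in Nkx2.2-/- mice and 8.97 to 9.17 in WT mice, Aldh1l1 at -0.27 and Slc1a2 at 0.30. Of 5 proliferation genes 0 passed and 5 were lower in sign, with Birc5 at -0.56 and Cdk1 at -0.62. All 5 were lower at an unadjusted limma p under 0.05, beside 2.35% of all probe sets. Of 5 caudal Hox genes 0 passed and 5 were higher in sign, with Hoxc8 at 1.33 and Hoxd8 at 0.32. Of these, 2 were higher at that unadjusted level, beside 1.08% of all probe sets.

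Genes whose deviations from their genotype means most resembled those of a factor over the 10 arrays were sought among 18192 others, as a description. For Myrf the 4 highest Pearson correlations were with 4933405D12Rik (0.970), Hcar2 (0.969), Srpk3 (0.939) and 4933407G14Rik (0.932), and that with Mbp was 0.520. For Olig2 they were with P4htm (0.968), Olfm2 (0.955), Txndc9 (0.948) and Bcap31 (0.921), and that with Olig1 was 0.790. The points share arrays, and with so many genes and few arrays values of this size are given only as a ranking.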

How the data were processed

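Total RNA of 5 Nkx2.2-/- and 5 WT mice was measured on 1 array each. RMA, named in the submitters' processing notes, gave the log2 values that the authors deposited; neither its version nor the build behind the probes is stated there. Such values carry no detection call. After removal of 64 control probe sets from 45101, limma (version 3.58.1, in R 4.3.3) fitted genotype alone to each of the 45037 left, by lmFit and eBayes, and p-values were adjusted over all of them by Benjamini-Hochberg, at 0.05. For 1 value per gene, the probe set of highest mean among those with 1 symbol was taken ("brightest"). Tables were handled with pandas 2.3.3 in Python 3.11.15 and drawn with matplotlib 3.10.9. The test was checked on simulated data with independent noise and added changes far larger than those of the factors. That check does not cover changes as small as theirs. Members, lists and the rule for named genes were chosen with earlier results of these data known. That rule took all members, Nkx2-2, the genes past the threshold in each list or else the 2 of lowest p, a few set genes, and the 4 most alike. Of the set genes 2 were not analysed here. Alternatives were other normalizations, array weights, a filter on dim probe sets, covariates for the Gapdh difference, sex-linked transcripts, caudal Hox and proliferation, and each array left out in turn. The labels give no batch. The limma p-values set the difference of genotype means against the spread between mice within a genotype, 5 per group. By eBayes that spread borrows from all probe sets.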

Additional observations from a re-analysis of the deposited data

Results flagged for a closer look

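Among 58 groups of 5 values (27 probe sets and the 2 class means in each genotype), 7 had 1 array far from the other 4, by a gap of more than 0.71 of the group's range. Chance gives such a gap in about 1 of 20 groups. The second brightest Sox6 probe set was set apart in both genotypes and on the arrays of dim 5 prime Gapdh, at 6.40 in Nkx2.2-/- replicate 43 (others 5.82 to 5.98) and at 6.24 in WT replicate 14 (others 5.93 to 6.02). The dimmest Tcf7l2 probe set was low in Nkx2.2-/- replicate 43, at 4.44, and high in WT replicate 21, at 4.65. The fifth brightest Sox5 probe set was low in Nkx2.2-/- replicate 29, at 4.29, and the brightest was high in WT replicate 18, at 5.43. The dimmest Zeb2 probe set was low in WT replicate 18, at 4.31.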

How the results depend on the processing

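No paired analysis was possible, because the genotypes share no replicate numbers and the labels do not give the litter of each mouse. Differences between litters were therefore not modelled. Over 23 alternative fits, 0 member probe sets passed in either direction, and in the fit as reported 0 passed at an adjusted p of 0.1 and 2, both lower, at an unadjusted p of 0.05. Under some alternatives Olig1 and Olig2 were higher, and Tcf7l2 and another Zeb2 probe set lower, at that unadjusted level. The changes of 6 genes kept their sign in all 23 but not their size. Olig1 ran from 0.026 (caudal Hox mean) to 0.17, Olig2 from 0.046 (proliferation mean) to 0.19, Sox8 from -0.15 to -0.040 (without WT replicate 16; -0.044 without Nkx2.2-/- replicate 43), Tcf7l2 from -0.22 to -0.068 (mean of probe sets per gene), Myrf from -0.39 to -0.24 and Nkx2-2 from -2.10 to -1.94. Others reversed. Sox10 was at -0.063 with the caudal Hox mean and at -0.19 with the proliferation mean as a covariate, and between 0.0051 and 0.14 without 1 array. With 1 array left out, Sox5 lay between -0.067 and 0.023, positive without Nkx2.2-/- replicate 11 (0.023) and WT replicate 18 (0.0056). Sox6 was at 0.0021 with the sex covariate, 0.0059 without Nkx2.2-/- replicate 11 and 0.025 without WT replicate 14, and between -0.097 and 0.025 over such fits. Zeb2 was at 0.0028 without Nkx2.2-/- replicate 22, and between -0.21 and 0.0028. The specification median moved to -0.055 with the caudal Hox mean, -0.072 with the proliferation mean and 0.094 without Sox5 and Sox6, and lay between -0.0015 and 0.079 when 1 array was left out, highest without Nkx2.2-/- replicate 11. The differentiation median was -0.36 with the proliferation mean, -0.074 with the mean of probe sets per gene, and between -0.22 and -0.11 without 1 array. Probe sets that fell numbered 23 in the fit as reported. There were 31 with the Gapdh difference as a covariate, 31 with a variance trend in eBayes and 25 with array weights. With the caudal Hox mean they numbered 10, with the proliferation mean 12, and without 1 array 18 to 23. They numbered 11 genes with 1 probe set per gene and 12 with the mean of its probe sets, where fewer features were tested. Otherwise the cause was not tested. Proliferation and caudal Hox means differ between genotypes, so those fits cannot fully tell the covariate from genotype. Values moved both ways. With the proliferation mean Olig2 was nearer to 0 (0.046) and the differentiation median was further from it (-0.36). Dim probe sets limit what small differences can show.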
